A study of Mus musculus with 6 samples.

Results

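Fibronectin (Fn1) and 9 genes of matricellular proteins, Tnc, Postn, Thbs1, Thbs2, Sparc, Ccn1, Ccn2, Tgfbi and Sparcl1, were followed in bulk RNA sequencing of mouse RPE-choroid with and without subretinal fibrosis. The genes were chosen by name, as a family, although with earlier results of these data known. All 10 were among the 15663 genes listed and the 13454 genes tested. This tissue holds the pigment epithelium of the retina (RPE), a single layer that supports the photoreceptors, and the vascular choroid beneath it. Libraries were made from 3 control and 3 subretinal fibrosis (SRF) mice of the strain C57BL/6J. All were young adult males. In the SRF group each eye had received 4 laser burns, each lesion was burned again 10 days later, and tissue was collected 20 days after the second laser. The control mice were healthy and untreated, so that the groups differ in the laser burns themselves as well as in the scars that followed. The RNA was extracted from RPE-choroid as a whole, with the tissue between the burns, and in such bulk samples more or fewer cells of a type cannot be told apart from more or less RNA per cell.

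Fibronectin is a large glycoprotein that cells assemble into fibrils through integrins, and it forms the provisional matrix of a healing wound. Matricellular proteins are secreted into the matrix but serve mainly as signals: they bind integrins, growth factors and collagen and change how cells adhere, migrate and lay down matrix. Several of them, among them periostin, tenascin C, thrombospondin 1 and the CCN proteins, are induced by transforming growth factor beta (TGF-beta) or by mechanical tension through the YAP-TEAD transcription factors, and are abundant in scars and in tissue rich in fibroblasts.

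The libraries held between 13667310 and 24356023 counts on genes. Counts are given below as CPM (counts scaled to a common library size after TMM normalization, which corrects for library composition). The RPE markers were abundant in every library, with Rgr and Ttr, an RPE opsin and the transthyretin carrier, highest among them, and the 11 RPE markers together took 44002 to 51064 CPM in the controls and 30243 to 38434 CPM in the SRF libraries. Control library 1 and SRF library 3 stood apart from the others by retinal RNA. The 20 photoreceptor markers, with Gnb1, a transducin subunit, highest, summed to 17614 and 17380 CPM in these 2 libraries and to between 1871 and 3383 CPM in the other 4. Markers of fibroblasts and of the ocular surface also differed between libraries of the same group and are given beside the results they move with.

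The levels of the 10 genes can be set against each other only per transcript length, for which the deposited FPKM values (fragments per unit of transcript length and of sequencing depth) were used. Sparc, which encodes osteonectin, a collagen-binding protein, was by far the most abundant, with a mean of 999 FPKM over the 6 libraries and a range of 727 to 1322. Its lowest library lay above the highest library of every other gene of the family. Ccn2 followed with a mean of 207 FPKM, then Sparcl1 with 114, Thbs1 with 110 and Ccn1 with 95.2 FPKM. The ranges of each of these and the next overlapped, so that their order is not resolved beyond the spread between libraries. Thbs2 had a mean of 37.6 FPKM, Tgfbi 21.5, Postn 20.8 and Fn1 15.3 FPKM, and here too each range overlapped with the next. Tnc was lowest, at 4.60 FPKM on average, and its highest library, at 7.89 FPKM, was below the lowest of Fn1, at 10.5 FPKM. On the CPM scale Sparc alone made up between 40.0% and 50.9% of the summed counts of the family.

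Thbs1 had the smallest p of the family in the comparison of SRF with control RPE-choroid and a fold change close to that of Tnc, and it was the only gene whose 3 SRF libraries all lay above all 3 controls in CPM. Tnc and Fn1 were also higher in SRF on average, but with 1 control library above 1 SRF library in each. Sparc, Thbs2, Ccn2 and Postn had higher SRF means with overlapping groups, and Ccn1, Tgfbi and Sparcl1 had nearly equal means. Genes were tested with edgeR's quasi-likelihood method and Benjamini-Hochberg adjustment over all tested genes, and called where the adjusted p was under 0.05 and the log2 fold change 0.5 or more either way. None of the 10 genes was called (0 of 10), and over all genes the share called was 0.00%. The smallest adjusted p of the 10 was 0.465. Before adjustment, 3 of the 10 (Thbs1, Fn1 and Tnc) had p under 0.05 with higher counts in SRF and 0 with lower counts, against 4.16% and 2.85% of all tested genes. DESeq2 on the same counts called 1 of the 10, Thbs1, and 1.14% of all tested genes. The median log2 fold change of the 10 genes was 0.39, with 7 higher and 3 lower in SRF, whereas it was 0.00 over all tested genes, of which 50.3% were higher. Groups that do not overlap, with SRF on top, were found in 1 of the 10 genes and in 6.71% of all tested genes.

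How many of the 10 genes had p under 0.05 depended on single libraries. The count was 6 without control library 3, when Sparc, Thbs2 and Ccn2 joined the 3 genes above, with 6.66% of all tested genes at p under 0.05 in either direction against 7.01% with all libraries. It was 1, Thbs1, without control library 1, control library 2 or SRF library 2, with 7.96%, 4.13% and 3.28% of all genes. Without the 2 libraries rich in photoreceptor RNA the count was again 3, but the genes were Thbs1 and Postn, higher in SRF, and Ccn1, lower in SRF. In that fit 17.6% of all tested genes had p under 0.05, so the count is not comparable with that over all libraries.

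**Figure D1:**
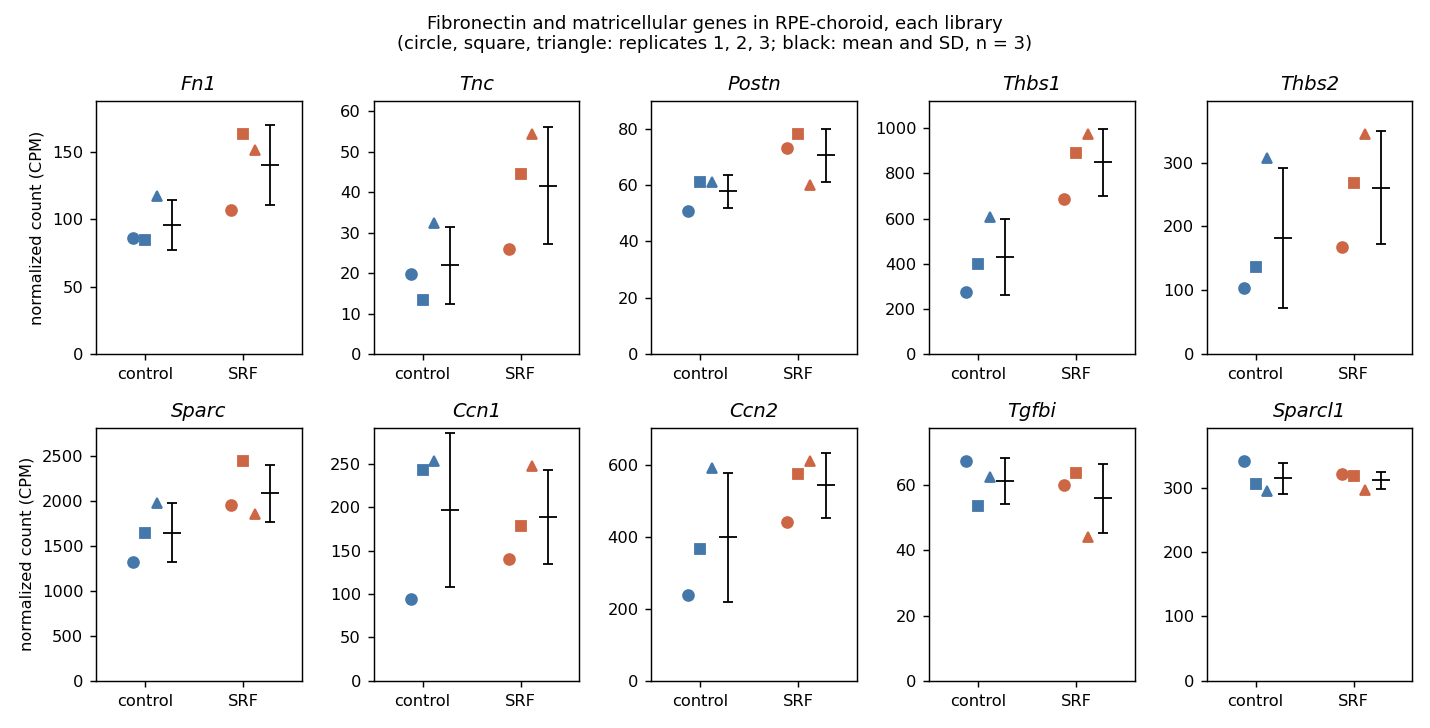
Normalized counts (CPM, linear axis from 0) of the 10 genes in the 3 control and 3 SRF libraries, with circles, squares and triangles for replicates 1, 2 and 3 and the mean and SD of each group in black. Thbs1 is the only gene with all SRF libraries above all controls, and control replicate 3 lies above SRF replicate 1 for Fn1, Tnc, Thbs2, Sparc, Ccn1, Ccn2 and Tgfbi.

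The thrombospondins are large secreted glycoproteins. Thrombospondin 1 inhibits angiogenesis through the receptor CD36 and releases TGF-beta from its latent complex, and its gene Thbs1 lies at chr2:118111876-118127133 on the plus strand (GRCm38, GENCODE M21). It had 275, 400 and 609 CPM in control libraries 1, 2 and 3 and 685, 888 and 975 CPM in SRF libraries 1, 2 and 3. The means were 428 ± 169 and 850 ± 149 CPM (SD, n = 3). This was a 1.98-fold difference, or 0.99 on the log2 scale with a standard error of 0.29 and a 95% interval from 0.29 to 1.68. The groups did not overlap, although the highest control, library 3, came close to the lowest SRF library, and the controls differed among themselves by 2.21 times. The p of edgeR's quasi-likelihood test was 0.0121 before and 0.465 after adjustment, and the two-sided exact permutation test over the 6 libraries gave 0.1, the smallest p that 3 against 3 allows.

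With DESeq2 the log2 fold change of Thbs1 was 0.98 with an adjusted p of 0.0479, just within the threshold. The DESeq2 call was kept without control library 3 (adjusted p 6.4e-05) and without both photoreceptor-rich libraries (log2 fold change 0.63, adjusted p 0.0453). It was lost when any other single library was left out, with DESeq2 adjusted p from 0.0625 without SRF library 1 to 0.595 without SRF library 2. Of the 10 genes, Thbs1 alone had an unadjusted p under 0.05 in each of the 25 alternative fits, with log2 fold changes from 0.51 to 1.33.

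Thrombospondin 2, the closest relative of thrombospondin 1, is made mainly by fibroblasts and takes part in collagen fibril assembly. Thbs2 (chr17:14665500-14694235, minus strand) had 103, 136 and 308 CPM in the controls and 169, 268 and 345 CPM in the SRF libraries. The controls spread by 2.97 times, the widest of the 10 genes, and control 3 lay above SRF 1 and SRF 2. The log2 fold change was 0.51 with a standard error of 0.44 and an interval from -0.53 to 1.55, and edgeR's adjusted p was 0.949. Without control library 3 it was 1.12, with an adjusted p of 0.0405 by DESeq2 and 0.635 by edgeR, and without control library 1, control library 2 or SRF library 3 it was 0.24, 0.34 or 0.26 by edgeR.

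Fn1 (chr1:71585520-71653200, minus strand) had 86.1, 84.3 and 117 CPM in the controls and 107, 163 and 151 CPM in SRF. Control 3 exceeded SRF 1, and the other control libraries lay below all SRF libraries. The means of 95.8 ± 18.4 and 140 ± 29.6 CPM gave a log2 fold change of 0.55 (standard error 0.20, 95% interval 0.07 to 1.03), with an adjusted p of 0.619 by edgeR and 0.360 by DESeq2.

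Tenascin C is a hexameric glycoprotein that is scarce in most adult tissue and is made again in wounds, where it loosens adhesion to fibronectin. Tnc (chr4:63959785-64047015, minus strand) had 19.9, 13.5 and 32.4 CPM in the controls and 25.9, 44.5 and 54.4 CPM in SRF. As for Fn1, control 3 lay above SRF 1 and the other libraries were separated by group. The means were 21.9 ± 9.62 and 41.6 ± 14.5 CPM, and the log2 fold change of 0.92 had an interval from 0.03 to 1.82 and an adjusted p of 0.682 by edgeR and 0.370 by DESeq2. Tnc rests on the fewest reads of the family, 248 to 972 per library.

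Of all tested genes, those whose log2 CPM followed Fn1 most closely over the 6 libraries were C1qtnf7, Aacs and Rapgef2, each with a Pearson r of 0.99. C1qtnf7, a secreted C1q/TNF-related protein, ran from 26.0 to 40.2 CPM, Aacs, acetoacetyl-CoA synthetase, from 18.2 to 30.9 CPM, and Rapgef2, an exchange factor for Rap GTPases, from 23.0 to 27.4 CPM. These are the 3 highest of 13454 correlations over 6 points that share their libraries, and they are given as a description.

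Ccn1 (CYR61) and Ccn2 (CTGF) are secreted integrin ligands and textbook targets of YAP-TEAD, and Ccn2 is also a target of TGF-beta in fibrosis. Ccn2 (chr10:24595442-24598683, plus strand) had 239, 367 and 593 CPM in the controls and 443, 577 and 613 CPM in SRF. Control 3 lay above SRF 1 and SRF 2, the log2 fold change was 0.45 with an interval from -0.31 to 1.20, and edgeR's adjusted p was 0.922. Without control library 1 the value was 0.19, and without control library 3 it was 0.84, with an adjusted p of 0.635 by edgeR and 0.0614 by DESeq2. Ccn1 (chr3:145646976-145649981, minus strand) had 94.5, 243 and 253 CPM in the controls and 141, 178 and 247 CPM in SRF. Control 1 was the lowest library and the other controls were level with or above the SRF libraries, so that the log2 fold change was -0.06 with a wide interval from -0.98 to 0.85. Without control library 1 and SRF library 3, the pair with high photoreceptor RNA, 243 and 253 CPM stood against 141 and 178 CPM. The log2 fold change of Ccn1 was then -0.64, with an adjusted p of 0.0837 by edgeR and 0.00482 by DESeq2, which called it. Leaving out these libraries was chosen after their values were seen, and it leaves 2 libraries in each group.

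The RefSeq promoters of 4 of the genes are shown because the family is known for its response to YAP-TEAD and to TGF-beta, and targets of the former and components of the latter are given further on. Each runs from 250 bases before to 50 bases after the transcription start (GRCm38.p6, 5′ to 3′ on the strand of the gene). RefSeq promoters were found for 6 of the 10 genes and not for Fn1, Thbs1, Ccn2 and Sparcl1. Capitals mark GGAATG, the core of the TEAD motif, or CAGACA, a SMAD-binding element, on either strand. The Ccn1 promoter (chr3:145649936-145650235, minus strand) held 1 TEAD core and the Tnc promoter (chr4:64046966-64047265, minus strand) 1 SMAD element. The Thbs2 (chr17:14694213-14694512, minus strand) and Sparc (chr11:55420031-55420330, minus strand) promoters held 2 SMAD elements each, the latter from a RefSeq start inside the GENCODE gene.
Ccn1: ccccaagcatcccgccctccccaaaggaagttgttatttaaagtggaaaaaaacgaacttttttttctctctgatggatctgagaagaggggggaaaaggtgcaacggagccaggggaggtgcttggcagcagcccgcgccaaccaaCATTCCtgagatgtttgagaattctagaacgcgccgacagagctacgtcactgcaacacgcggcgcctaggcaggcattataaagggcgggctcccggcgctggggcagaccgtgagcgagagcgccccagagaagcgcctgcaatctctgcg
Tnc: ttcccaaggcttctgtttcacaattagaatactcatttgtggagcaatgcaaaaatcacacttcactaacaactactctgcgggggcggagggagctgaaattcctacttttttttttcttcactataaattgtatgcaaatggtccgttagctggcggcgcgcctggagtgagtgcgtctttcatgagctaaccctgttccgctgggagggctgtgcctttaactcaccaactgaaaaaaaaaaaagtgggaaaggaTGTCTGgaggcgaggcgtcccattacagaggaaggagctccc
Thbs2: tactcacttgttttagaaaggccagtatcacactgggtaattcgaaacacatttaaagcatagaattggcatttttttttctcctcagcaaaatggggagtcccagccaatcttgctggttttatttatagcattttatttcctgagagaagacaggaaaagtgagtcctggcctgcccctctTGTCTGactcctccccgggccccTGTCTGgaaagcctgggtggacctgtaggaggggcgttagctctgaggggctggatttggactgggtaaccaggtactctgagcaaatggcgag
Sparc: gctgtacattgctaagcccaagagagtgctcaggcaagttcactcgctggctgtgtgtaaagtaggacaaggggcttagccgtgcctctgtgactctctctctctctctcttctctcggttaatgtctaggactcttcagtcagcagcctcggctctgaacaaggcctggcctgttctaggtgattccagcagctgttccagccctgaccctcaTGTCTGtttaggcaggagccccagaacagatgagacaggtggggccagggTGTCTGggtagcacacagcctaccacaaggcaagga
The Postn and Tgfbi promoters held neither motif, and in none of the 6 did the motifs overlap. Of all 32851 RefSeq promoters of this length, 14.7% held the TEAD core and 21% the SMAD element on either strand, so that matches of these short motifs are common.

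Periostin and TGF-beta-induced protein are related proteins with fasciclin domains that bind integrins and collagen. Postn (chr3:54361109-54391037, plus strand) had 50.9, 61.2 and 60.9 CPM in the controls and 73.2, 78.1 and 60.0 CPM in SRF. SRF 3 lay among the controls, and the log2 fold change of 0.29 (interval -0.05 to 0.63) had an adjusted p of 0.785 by edgeR. In FPKM the groups of Postn did not overlap, with 15.9, 18.9 and 19.1 FPKM against 23.4, 27.2 and 20.4 FPKM, for which the exact permutation test gave 0.1. Tgfbi (chr13:56609523-56639562, plus strand) had 67.5, 53.5 and 62.6 CPM in the controls and 60.1, 63.8 and 44.0 CPM in SRF. Its groups overlapped widely, and its log2 fold change of -0.13 had an interval from -0.54 to 0.28.

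Osteonectin binds collagen and calcium and affects collagen fibril assembly, and SPARC-like 1 (hevin) is its closest relative. Sparc (chr11:55394500-55423183, minus strand) had 1328, 1642 and 1985 CPM in the controls and 1958, 2451 and 1857 CPM in SRF. The highest control, library 3, exceeded 2 SRF libraries, and the log2 fold change was 0.34 with an interval from -0.09 to 0.77 (edgeR's adjusted p 0.827), or 0.21 without control library 1 or without SRF library 2. Sparcl1 (chr5:104079111-104113733, minus strand) was the most even gene of the family, with 342, 306 and 295 CPM in the controls and 321, 317 and 296 CPM in SRF. Its log2 fold change of -0.01 had the narrowest interval of the 10, from -0.27 to 0.25, so that changes beyond these bounds are outside the 95% interval.

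Genes on the opposite strand overlap Fn1 (Apol7d), Tnc (8030451A03Rik), Thbs1 (Gm29233), Ccn2 (Gm15270) and Sparcl1 (Gm26703). None of them is listed in the tables, and since the use of strand in counting is not given in the sources used here, their reads cannot be told apart from those of the 5 genes.

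**Figure D2:**
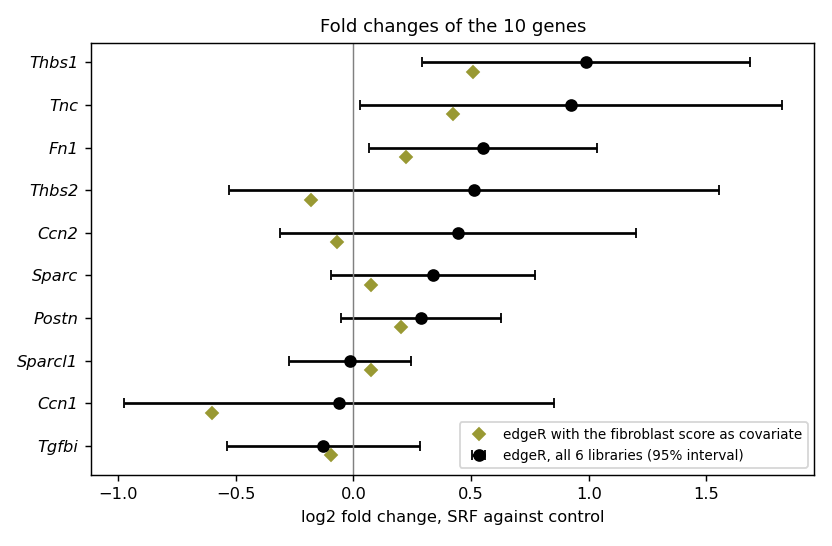
Log2 fold changes of the 10 genes, SRF against control, from edgeR with 95% intervals (black circles), and from the fit with the fibroblast marker score as a covariate (diamonds). The intervals of Thbs1, Tnc and Fn1 lie above 0, and with the covariate the value of Thbs1 goes from 0.99 to 0.51 and that of Thbs2 from 0.51 to -0.18.

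The family varied strongly among untreated mice. The ratio of the highest to the lowest control had a median of 1.85 over the 10 genes and 1.31 over all tested genes. It was above 2 for Thbs2, Ccn1, Ccn2, Tnc and Thbs1, and at most 1.26 for Tgfbi, Postn and Sparcl1. Control 1 was the lowest control for 6 of the 10 genes and control 3 the highest for 7. The summed CPM of the family was 2607, 3306 and 4316 in the controls and 3982, 5030 and 4643 in SRF, so that control 3 exceeded SRF 1. Control 1 was also the library with the fewest counts, 13667310, and control 3 that with the most, 24356023. The part of depth in this order was not tested.

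Fibroblast markers followed the same order in the controls. The 8 markers (Col1a1, Col1a2, Col3a1, Pdgfra, Dcn, Lum, Col6a1 and Col6a3), of which Dcn and Col1a1, the genes of decorin and of a type I collagen chain, were most abundant, summed to 4461, 5762 and 10313 CPM in the controls and 6829, 9486 and 11273 CPM in SRF. All 8 had higher SRF means, with a median log2 fold change of 0.44, and 1 of them, Col3a1, had p under 0.05 by edgeR (log2 fold change 0.64, adjusted p 0.539). The 7 markers of ocular surface epithelium, led by the keratin gene Krt15 and by Aldh3a1, summed to 237, 1269 and 2550 CPM in the controls and 1234, 1174 and 666 CPM in SRF. The 8 mural and myofibroblast markers, with Rgs5 and Acta2 highest, spanned only 1962 to 2626 CPM over all libraries, with a median log2 fold change of 0.01. The 10 macrophage markers, led by Lyz2 and Ctss, summed to between 1319 and 1661 CPM in the controls and between 3126 and 4670 CPM in SRF, with 6 of them higher at p under 0.05 by edgeR. The ocular surface sums also rose from control 1 to control 3, but all 7 of these markers were lower in SRF on average. The mural sums had the same order as those of the family within each group, over a narrower span. The part of the macrophage, ocular surface and mural markers in the differences was not tested, and the fits that follow concern the fibroblast markers.

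**Figure D3:**
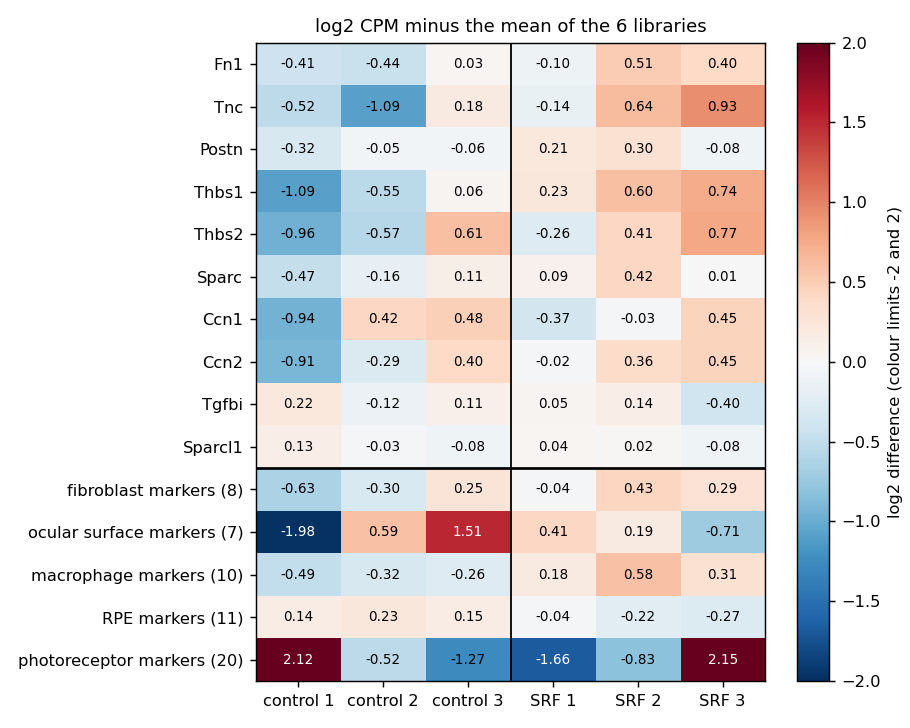
Log2 CPM of each of the 10 genes, and the mean log2 CPM of 5 marker lists, minus the mean over the 6 libraries (red above, blue below the mean). Fn1, Tnc, Thbs1, Thbs2, Sparc and Ccn2 are lowest or near lowest in control 1 and highest in control 3 among the controls, as are the fibroblast markers, while Tgfbi and Sparcl1 stay near 0 in most libraries.

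Set against the fibroblast markers, Thbs1 again had groups that did not overlap, and those of the other 9 genes did. On this scale 0.32% of all tested genes had all 3 SRF libraries above all 3 controls. The marker sum was itself higher in SRF on average, which lowers the SRF ratios of all genes. This share therefore cannot be set beside the 6.71% found in CPM. Per 100 CPM of the 8 markers in the same library, Thbs1 had 6.17, 6.95 and 5.91 CPM in the controls and 10.0, 9.37 and 8.65 CPM in SRF. For Thbs1 the spread between control libraries, 2.21 times in CPM, was much smaller on this scale. Its means were 6.34 ± 0.541 and 9.35 ± 0.689 (SD, n = 3). The control spread was also smaller for Tnc, Thbs2, Ccn1 and Ccn2, but larger than in CPM for Fn1, Postn, Sparc, Tgfbi and Sparcl1. Sparcl1, the most even gene in CPM, had 7.66, 5.31 and 2.86 in the controls, and Tgfbi 1.51, 0.929 and 0.607. Thbs2 and Ccn2, on the same scale, had nearly equal means, with 2.56 ± 0.371 against 2.78 ± 0.299 for Thbs2 and 5.83 ± 0.506 against 6.00 ± 0.528 for Ccn2. Fn1 had 1.51 ± 0.400 and 1.54 ± 0.192, and Tnc 0.331 ± 0.107 and 0.444 ± 0.056, with overlapping groups. Dcn supplied 48.6% to 64.4% of the marker sum, so these ratios rest largely on that gene.

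With the mean log2 CPM of the 8 markers, which weights them equally, as a covariate in edgeR, the log2 fold change of Thbs1 was 0.51 with a standard error of 0.15, an unadjusted p under 0.05 and an adjusted p of 0.637. Those of Tnc, 0.42, Fn1, 0.23, and Sparc, 0.08, had p above 0.05. Thbs2 and Ccn2 turned to -0.18 and -0.07, Ccn1 went from -0.06 to -0.60 with an adjusted p of 0.755, and the median of the 10 genes was 0.08. Both the ratios and this covariate were chosen after the values had been seen, and since the markers were themselves higher in SRF, the covariate also takes up part of the difference between the groups.

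**Figure D4:**
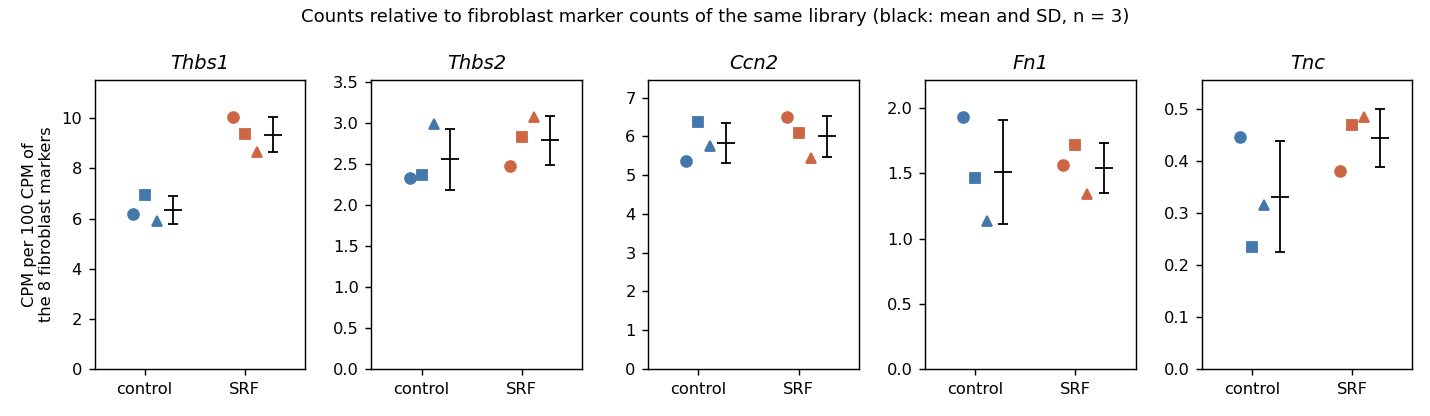
CPM of Thbs1, Thbs2, Ccn2, Fn1 and Tnc per 100 CPM of the 8 fibroblast markers in the same library (axes from 0; circles, squares and triangles for replicates 1, 2 and 3; mean and SD in black). The SRF libraries of Thbs1 lie between 8.65 and 10.0, above controls of 5.91 to 6.95, and the groups of the other 4 genes overlap.

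Other matricellular genes were also mostly higher in SRF on average. Of 23 genes of the thrombospondin, tenascin, CCN, SMOC, SPOCK and fibulin families and related proteins, 21 were tested, 16 were higher and 5 lower in SRF, and 3 had p under 0.05 by edgeR, all of them higher. These were Spp1, the gene of osteopontin, with 532 ± 95.6 against 798 ± 30.5 CPM, Smoc1, a calcium-binding relative of osteonectin, with 85.0 ± 4.55 against 123 ± 23.3 CPM, and Thbs3, with 9.55 ± 0.854 against 14.8 ± 2.93 CPM. Ccn4, which came next, had 32.1 ± 3.51 and 38.1 ± 5.51 CPM and an adjusted p of 0.875 by edgeR. DESeq2 called Spp1 (adjusted p 0.0161), and the median log2 fold change of the list was 0.17.

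Receptors of these proteins differed in both directions. Of 20 integrins, syndecans and other receptors, none passed edgeR's adjusted threshold, 2 were higher and 2 lower at an unadjusted p under 0.05, and DESeq2 called 1 higher and 2 lower. Itgb5, the integrin beta 5 subunit that pairs with alpha V to bind vitronectin, had 97.0, 94.6 and 92.0 CPM in the controls and 180, 215 and 203 CPM in SRF, a log2 fold change of 1.07 (edgeR's adjusted p 0.106). Itgav, the alpha V subunit, went the other way, with 291 ± 2.77 CPM in the controls and 196 ± 17.3 CPM in SRF. Itgb8, the beta 8 subunit, which with alpha V activates latent TGF-beta, likewise had 844 ± 27.3 and 588 ± 31.7 CPM. Each of these 3 receptor genes separated the groups without overlap and with controls that were nearly level. Groups without overlap, with SRF on top, were found in 6.71% of all tested genes, and the share with SRF below was not counted. Cd36, a receptor of thrombospondin 1, had 57.7 ± 8.11 CPM in the controls and 77.7 ± 5.72 CPM in SRF, also without overlap. Its log2 fold change was 0.43, with an adjusted p of 0.516 by edgeR. RPE cells express alpha V integrins, and 9 of the 11 RPE markers were lower in SRF, with a median log2 fold change of -0.30. The part of the RPE in the values of these receptor genes was not tested.

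Targets of YAP-TEAD were about as often lower as higher on average, and no tested gene of the TGF-beta pathway, whose list holds mostly ligands, receptors, SMADs and latent binding proteins, had p under 0.05. Of 20 YAP-TEAD targets outside the family, 19 were tested, 4 were higher and 2 lower at p under 0.05 by edgeR, and the median log2 fold change was 0.01. The smallest p were those of F3, tissue factor, lower with 209 ± 12.3 against 139 ± 15.8 CPM, and of Fjx1, Ccdc80 and Gadd45a, higher with log2 fold changes of 1.43, 0.52 and 0.60. DESeq2 called F3 of this list. For the 14 tested genes of the TGF-beta list the median was 0.17, 0 had p under 0.05 by edgeR and DESeq2 called 0. The smallest p there were those of Ltbp4, Skil, Tgfb1 and Ltbp3, with log2 fold changes of 0.32, -0.28, 0.53 and 0.28 and adjusted p by edgeR of 0.751 to 0.913. Tgfb1 itself had 3.17 ± 0.373 CPM in the controls and 4.57 ± 0.465 CPM in SRF, without overlap.

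Immediate early genes, which respond within minutes to serum, stress or handling and among which Ccn1 is itself often counted, were mostly lower in SRF on average. Of 16 tested, 15 were lower with a median log2 fold change of -0.74, 6 at p under 0.05 by edgeR, and DESeq2 called 3. Over all tested genes 2.85% were lower at that edgeR p, and DESeq2 called 1.14% in either direction. Nr4a1, a nuclear receptor, had 78.8, 364 and 290 CPM in the controls and 27.8, 23.4 and 48.8 CPM in SRF, and Egr1 had 127, 211 and 168 CPM against 57.4, 89.4 and 118 CPM. Arc and Egr3 had log2 fold changes of -2.27 and -2.41, at low levels. Their means were 4.80 ± 1.69 CPM in the controls and 0.994 ± 0.401 CPM in SRF for Arc, and 4.90 ± 3.67 and 0.923 ± 0.268 CPM for Egr3. Control 1 was the lowest of the controls for Nr4a1 and Egr1, as it was for Ccn1.

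**Figure D5:**
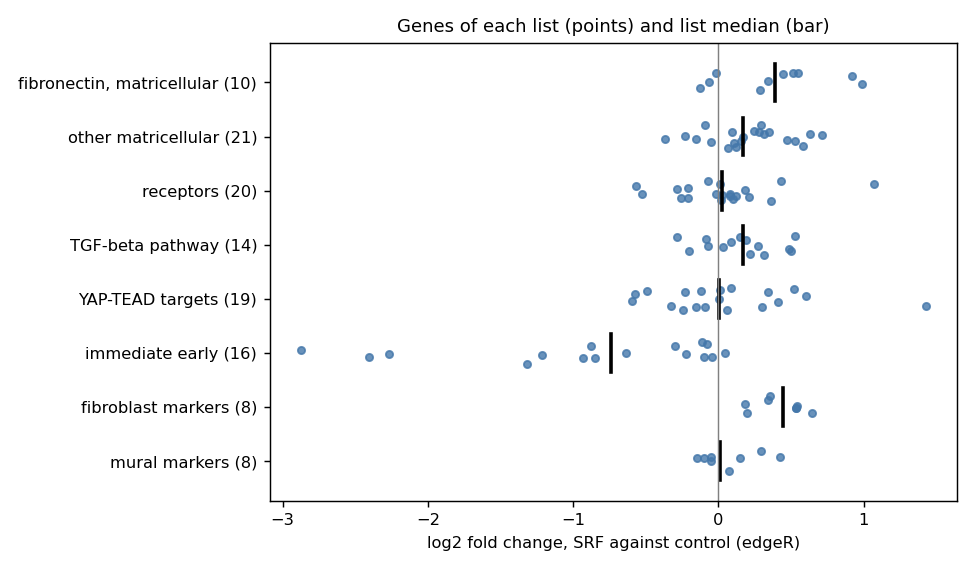
Log2 fold changes (SRF against control, edgeR) of the tested genes of 8 lists, 1 point per gene, with the list median as a bar and the number tested in brackets. The medians are 0.39 for the fibronectin and matricellular family, 0.44 for fibroblast markers, 0.17 for other matricellular genes and -0.74 for immediate early genes, with the rest between 0.01 and 0.17.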

How the data were processed

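RPE-choroid RNA of 3 control and 3 SRF mice was sequenced, and groups and replicate numbers were taken from the sample labels. The authors filtered reads with FASTP, counted them per gene with StringTie and deposited whole-number counts without normalization. They also deposited FPKM, scaled by transcript length and mapped reads. Aligner, genome build, annotation and strandedness are not given in the sources used here. GENCODE M21 (GRCm38) was used because 15659 of 15663 identifiers were found in it.

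Library totals were 13667310 to 24356023 counts, in which 3 counts are 0.123 to 0.220 CPM. Genes that exceeded 50 counts in 2 or more libraries were tested with edgeR 4.0.16 (R 4.3.3), using TMM, whose factors were 0.978 to 1.03, glmQLFit with legacy = TRUE, glmQLFTest and Benjamini-Hochberg adjustment. The thresholds for a call were those of the study, an adjusted p under 0.05 and a log2 change of 0.5 either way. Errors are SDs over 3 mice. Exact permutation tests were two-sided.

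The genes of the family and the lists were chosen with earlier results of these data known. Named besides the family were, of each related list, genes called and up to 4 with the smallest p, of each marker list the 2 with the highest counts, and the 3 genes closest to Fn1. The result of 1 marker gene that this rule names is not reported here. Col3a1 was named, and Itgb5, Nr4a1 and Egr1 were given by library, after their values were seen. Alternatives were DESeq2 1.42.0, limma 3.58.1 on log2 FPKM with 0.1 or 1 added, further scalings and filters, legacy = FALSE, covariates, a replicate block and leaving out libraries. Replicate numbers do not mark shared animals and did not pair the samples, so no block was used. Promoters are from RefSeq.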

Additional observations from a re-analysis of the deposited data

How the results depend on the processing

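Over all tested genes edgeR called 0 and had 943 at an unadjusted p under 0.05. It called 1 with upper-quartile factors, with legacy = FALSE, without a filter, with more than 50 counts required in all 6 libraries or with the photoreceptor score as a covariate, and 153 without both photoreceptor-rich libraries. DESeq2 called 153, or 514 without those libraries, and limma 2 on log2(FPKM + 0.1) and 2 on log2(FPKM + 1). Leaving out 1 library gave 0 to 5 calls with edgeR (5 without control 1) and 67 to 343 with DESeq2 (67 without SRF 2, 90 without control 2, 246 without control 1 and 343 without SRF 3). Of the 10 genes of the family, edgeR and limma called 0 in every fit run, DESeq2 called 1, or 2 without both photoreceptor-rich libraries, and 0 to 3 with 1 library left out (3 without control 3: Tnc, Thbs1 and Thbs2). The number at p under 0.05 was 3, 1 with the fibroblast score and 1 to 6 with 1 library left out. The median log2 fold change was 0.39, 0.076 with the fibroblast score and 0.20 to 0.61 with 1 library left out. The cause was not tested.

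With the replicate number as a replicate block, edgeR called 0 genes, 1206 rather than 943 genes and 5 rather than 3 of the family had p under 0.05, and the log2 fold change of Ccn1 turned to 0.029. Same-numbered libraries had correlations of deviations of -0.48, 0.49 and -0.30, and not every library was closest to its own number (SRF 2 was, control 1 and control 3 were not).

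Fn1, Tnc, Postn, Thbs1 and Sparc kept their direction in all 25 alternatives. Thbs2 was -0.18 with the fibroblast score and, without both photoreceptor-rich libraries, -0.030 by edgeR and -0.034 by DESeq2, and Ccn2 was -0.071 with the fibroblast score. Ccn1, at -0.06, was 0.079 and 0.077 by limma with 0.1 and 1 added, -0.60 with the fibroblast score and -0.40 to 0.16 with 1 library left out. Tgfbi was 0.089 without both photoreceptor-rich libraries (0.085 by DESeq2) and -0.24 to 0.026 with 1 library left out. Sparcl1 was 0.0026 with upper-quartile factors, 0.0033 with the all-library filter, 0.031 with limma and either value added, 0.075 with the fibroblast score, 0.082 by edgeR and 0.078 by DESeq2 without both photoreceptor-rich libraries, and -0.057 to 0.053 with 1 library left out. With 3 libraries a group, the 95% intervals of Thbs2 (-0.53 to 1.55), Ccn1 (-0.98 to 0.85), Ccn2 (-0.31 to 1.20), Postn (-0.05 to 0.63) and Sparc (-0.09 to 0.77) contain both 0 and 0.5. That of Tgfbi (-0.54 to 0.28) contains both 0 and a decrease of 0.5. A call needs 0.5 either way, so that such a difference is neither shown nor excluded in these genes.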

Other observations

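The deposited FPKM and counts of a library together give the transcript length by which each gene was scaled (the count divided by the FPKM and by the listed total). The lengths of each library were then divided by 1 factor. This was the median, over 5155 genes with over 500 counts in all libraries, of the length relative to the gene's median over libraries. For Ccn1, which has 1 annotated transcript of 2019 nt, the value was 2020 nt in every library, and for Thbs1 it was 5850 nt in every library against a longest annotated transcript of 5848 nt. For other genes of the family the length was not constant. Fn1, with 17 annotated transcripts, was scaled by 7173 nt in control 1 and by 7815 to 7850 nt in the other 5 libraries. Postn was scaled by 2947 and 2960 nt in SRF 2 and SRF 3 and by 3147 to 3174 nt in the other 4, which raises its FPKM in these SRF libraries relative to its counts. Scaled by library total alone, without TMM factors, the lowest SRF library of Postn had 60.5 CPM and the highest control 59.9 CPM, a narrow gap. With TMM these were 60.0 and 61.2 CPM, and in FPKM 20.4 and 19.1. The part of the length shift in the separation of the Postn groups in FPKM was not tested. Ccn2 was scaled by 2138 nt in SRF 1 and by 2271 to 2360 nt elsewhere, and Sparc by 1795 to 1931 nt with no order by group. Of 5155 genes with over 500 counts in all libraries, the longest such length exceeded the shortest by at least 5% in 35.0%, with a median ratio of 1.02, so such shifts are common. Whether they reflect different isoforms was not tested.

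Of the marker lists not described above, the 9 endothelial markers (Plvap and Kdr highest) summed to 1631 to 2149 CPM with a median log2 fold change of 0.03. The 9 Mueller cell and astrocyte markers (Apoe and Rlbp1 highest, the latter also an RPE marker) had a median of 0.11. The 9 skeletal muscle markers (Acta1 and Ckm highest) were all higher in SRF, with a median of 0.42 and p above 0.05 for each, and their sums were highest in SRF 1 and SRF 2, at 2879 and 2388 CPM, and lowest in SRF 3, at 787 CPM. The 6 Schwann cell markers (Mbp and Sox10 highest) had a median of 0.40, with a sum of 1167 CPM in SRF 2 and 362 to 571 CPM in the other libraries. The lens markers (Cryaa and Crybb2 highest) summed to 64.8 CPM in control 2, 22.3 CPM in control 3 and 2.56 to 7.14 CPM in the rest.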
